A study of Mus musculus with 6 samples.

Results

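Autophagosomes grow from a cup-shaped membrane, the phagophore, and 9 genes for the lipid supply of this membrane were examined in the mouse incisor. They were picked as named members of this pathway from the 19060 genes of the deposited count table: Atg2a, Atg2b, Atg9a, Wipi1, Wipi2, Wdr45, Wdr45b, Vmp1 and Tmem41b. The choice was made with earlier results of these data known. All 9 passed the filter on low counts and were among the 15826 genes tested. To ask how loss of FGF signaling changes gene expression, RNA was sequenced from the proximal end of the incisor, where the mesenchymal stem cells of this continuously growing tooth lie. The 3 control samples came from Fgfr1fl/fl mice, carrying loxP sites around each Fgfr1 allele but no Cre, although the labels also call them wild type. The 3 mutant samples came from Gli1CreER;Fgfr1fl/fl mice (Gli1-Cre;Fgfr1fl/fl in the labels). Tissue was taken 1 week after tamoxifen, and the labels give an age of 1 month for all 6 samples. Cre is driven by Gli1 and acts in Gli1+ cells and their descendants, whereas the RNA came from the whole proximal end, with its other cell types. In such bulk samples, fewer cells of a type and less RNA per cell cannot be told apart.

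ATG2 proteins are rod-shaped bridges that carry phospholipids from the endoplasmic reticulum to the phagophore. ATG9, a scramblase carried on small vesicles, moves the lipids between the leaflets of the receiving membrane, and VMP1 and TMEM41B do so in the endoplasmic reticulum. WIPI proteins (WIPI1, WIPI2, WDR45B or WIPI3, and WDR45 or WIPI4) bind phosphatidylinositol 3-phosphate, the lipid that marks the site, and WIPI2 recruits the ATG16L1 complex for ATG8 lipidation.

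Transcripts of the lipid bridges, of the ATG9 scramblase and of Wipi1 and Wipi2 were called lower in the mutant incisor at an unadjusted threshold, and those of the other 4 genes did not pass it. None of these calls held in every fit: 0 of the 9 genes were called lower with the length and GC correction or without control 2, and 1 without control 3. The study's threshold, an unadjusted p under 0.05 with a change over 1.5-fold, was passed by 5 of the 9 genes as lower (Atg2a, Atg2b, Atg9a, Wipi1 and Wipi2) and by 0 as higher, in edgeR's quasi-likelihood test. Over all genes tested, 8.92% were called lower and 10.9% higher at this threshold, 19.8% in all. With the counts scaled by their totals alone, the calls over all genes moved from 1411 lower and 1726 higher to 2335 lower and 1253 higher, and the same 5 genes were called. None of the 9 had a Benjamini-Hochberg adjusted p under 0.05 in edgeR, where 6.79% of all genes did, and 5 had an unadjusted p under 0.05. DESeq2 gave 1 of the 9, Atg2a, an adjusted p of 0.0327. The median log2 change of the 9 was -0.62, beside -0.040 over all genes tested. Each of these 5 genes was lower in every mutant sample than in any control sample, as they did for 16.3% of all genes.

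Facts about the libraries bear on every value below. The control samples held 31060222 to 32712448 counts and the mutant samples 5276557 to 11819576, so that 3 counts, the most a count of 0 allows, are 0.0825 to 0.0874 CPM (the normalised read count, relative to the scaled size of each library) in control and 0.256 to 0.655 CPM in mutant samples. Fgfr1 had a mean of 629 CPM in control and 243 CPM in mutant samples, a log2 change of -1.37 (standard error 0.40) with an adjusted p of 0.0881 from edgeR, and the groups did not overlap. Counts of the Y-linked gene Ddx3y were 934, 865 and 814 in controls 1 to 3 and 0, 0 and 405 in mutants 1 to 3, and Xist had 6, 1 and 2 counts against 498, 3315 and 1. The labels give no sex. The summed CPM of 8 ameloblast markers was 85576 to 120528 in control and 33314 to 72493 in mutant samples, without overlap, and that of 8 odontoblast and dental mesenchyme markers was 25468 to 68484 against 23193 to 29206, with overlap. Amelx and Ambn hold most of the ameloblast sum. Of the 8 ameloblast markers, 7 were fitted below 0 and did not pass the threshold, and Odam was higher (1.76, adjusted p = 0.0466, edgeR). None of either list was at 0 in any sample. Muscle markers summed to 10.5, 2800 and 30.0 CPM in control and 6332, 158 and 1025 CPM in mutant samples. The ranges for control and mutant samples were 380 to 823 and 926 to 2559 CPM for erythroid markers, 183 to 416 and 212 to 637 CPM for macrophage and osteoclast markers, 146 to 243 and 118 to 134 CPM for endothelial markers, and 28.7 to 46.7 and 24.0 to 99.5 CPM for Schwann cell markers. The erythroid and endothelial sums did not overlap between the groups. The erythroid marker Hba-a1 was lower (-2.04, adjusted p = 0.0460, edgeR), against the direction of its list's sum. Hba-a2 (1.36) and Hbb-bs (1.81) of the same list passed the unadjusted threshold as higher. So did Ctsk (1.02) of the macrophage and osteoclast list, and Col1a2 (-1.12) of the dental mesenchyme list passed it as lower. At least 1 sample was at 0, or the gene was not tested, for 1 of 8 muscle, 1 of 6 erythroid and 3 of 5 Schwann cell markers. The part of cell composition in the differences between genotypes was not tested, and for sex a fit limited to 4 samples is given below. With the control counts thinned to the mutants' mean total of 9484797, the same 5 members were called lower, with log2 changes of -1.62 for Atg2a, -1.27 for Atg2b, -1.02 for Atg9a, -0.70 for Wipi1 and -0.62 for Wipi2, where 7.70% of all genes were called lower.

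The start regions of Atg2a and Atg9a are printed because their levels followed each other most closely among the 9 genes and both hold 3 copies of the motif CCAAT, counted on both strands (ATTGG on the strand printed). Each line is the 250 bases before the RefSeq start on build GRCm38.p6, read 5′ to 3′ along the gene, with the motif in capitals. Atg2a is on the + strand at chr19:6241418-6241667 and Atg9a on the - strand at chr1:75192011-75192260. The annotated gene Atg9a reaches to 75192196, so much of its line, with all 3 copies, lies inside that gene.
Atg2a: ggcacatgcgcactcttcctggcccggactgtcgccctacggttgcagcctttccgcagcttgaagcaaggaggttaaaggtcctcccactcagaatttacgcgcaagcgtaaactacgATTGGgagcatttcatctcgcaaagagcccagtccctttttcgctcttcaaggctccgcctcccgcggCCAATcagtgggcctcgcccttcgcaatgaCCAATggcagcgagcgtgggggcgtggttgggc
Atg9a: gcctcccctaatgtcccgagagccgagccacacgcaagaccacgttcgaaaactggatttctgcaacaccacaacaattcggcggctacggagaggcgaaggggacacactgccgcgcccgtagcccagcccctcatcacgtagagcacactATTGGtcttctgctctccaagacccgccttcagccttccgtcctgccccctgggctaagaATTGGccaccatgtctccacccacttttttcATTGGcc
RefSeq promoters matched 8 of the 9 genes, with 10 starts in all. In the bases before the start, Wdr45 and Tmem41b hold 1 copy of CCAAT each, and Atg2b, Wipi1, Wipi2 and Vmp1 hold 0. For Wipi1, Wipi2, Wdr45, Tmem41b and some starts of Vmp1, these bases also lie inside the annotated gene. Of 32851 promoters, 33.8% hold at least 1 copy and 2.79% at least 3. CCAAT was chosen after the sequences were read, and no test was made. None of the 10 promoters (250 bases before to 50 after the start) holds CACGTG, the core of the CLEAR motif of lysosomal genes, which 7.15% of all promoters hold. The same is true of the longer TCACGTGA (0.974% of all promoters), the AP-1 motif TGACTCA (5.20%), the cyclic AMP response motif TGACGTCA (1.79%) and the forkhead motif TGTTTAC (3.65%), each searched on both strands. These are matches of letters only.

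Atg2a, on chromosome 19 of GRCm38 from 6241668 to 6262335, encodes an ATG2 lipid bridge and had the largest change of the 9 in the reported fit. Atg2b had the larger one with the length and GC correction, without mutant 1, without mutant 2 and in the samples with Y-linked counts. The level of Atg2a was 18.5, 32.2 and 23.6 CPM in control and 5.46, 4.95 and 12.9 CPM in mutant samples. The highest mutant sample, mutant 3, lay below the lowest control sample. The means were 24.7 ± 6.93 and 7.77 ± 4.45 CPM (SD, n = 3 each), 0.315-fold in mutant over control, and the log2 change was -1.66 (standard error 0.53, adjusted p = 0.113, edgeR). The mutant values rest on 25, 58 and 128 counts, whose exact Poisson 95% intervals are 16.2 to 36.9, 44.0 to 75.0 and 107 to 152 and cover counting error only. Leaving out each sample in turn gave log2 changes from -2.26 to -1.43.

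Atg2b, on chromosome 12 from 105616136 to 105685211, encodes the other ATG2 bridge. It had 12.8, 30.0 and 24.7 CPM in control and 11.8, 10.8 and 4.84 CPM in mutant samples. The groups did not overlap, but control 1 and mutant 1 were close, and the lowest mutant sample was mutant 3, which was the highest mutant sample for Atg2a. The log2 change was -1.30 (standard error 0.54, adjusted p = 0.221, edgeR), with means of 22.5 ± 8.84 and 9.16 ± 3.77 CPM (SD, n = 3 each). The genes Atg2b and Gskip overlap by 383 bases on opposite strands, and whether the counting used strand is not given in the sources used here.

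Atg9a, on chromosome 1 from 75180860 to 75192196, encodes the scramblase of the ATG9 vesicles. It had 33.0, 56.9 and 51.5 CPM in control and 21.2, 17.4 and 30.5 CPM in mutant samples. Mutant 3 came nearest to control 1, and the groups did not overlap. The log2 change was -1.03 (standard error 0.34, adjusted p = 0.131, edgeR), from 47.2 ± 12.5 to 23.0 ± 6.76 CPM (SD, n = 3 each), or 0.489-fold. The annotated transcript Gm29253 overlaps Atg9a by 4287 bases on the same strand, so reads there could have been assigned to either, and Ankzf1 overlaps it by 46 bases at its start on the opposite strand.

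**Figure D1:**
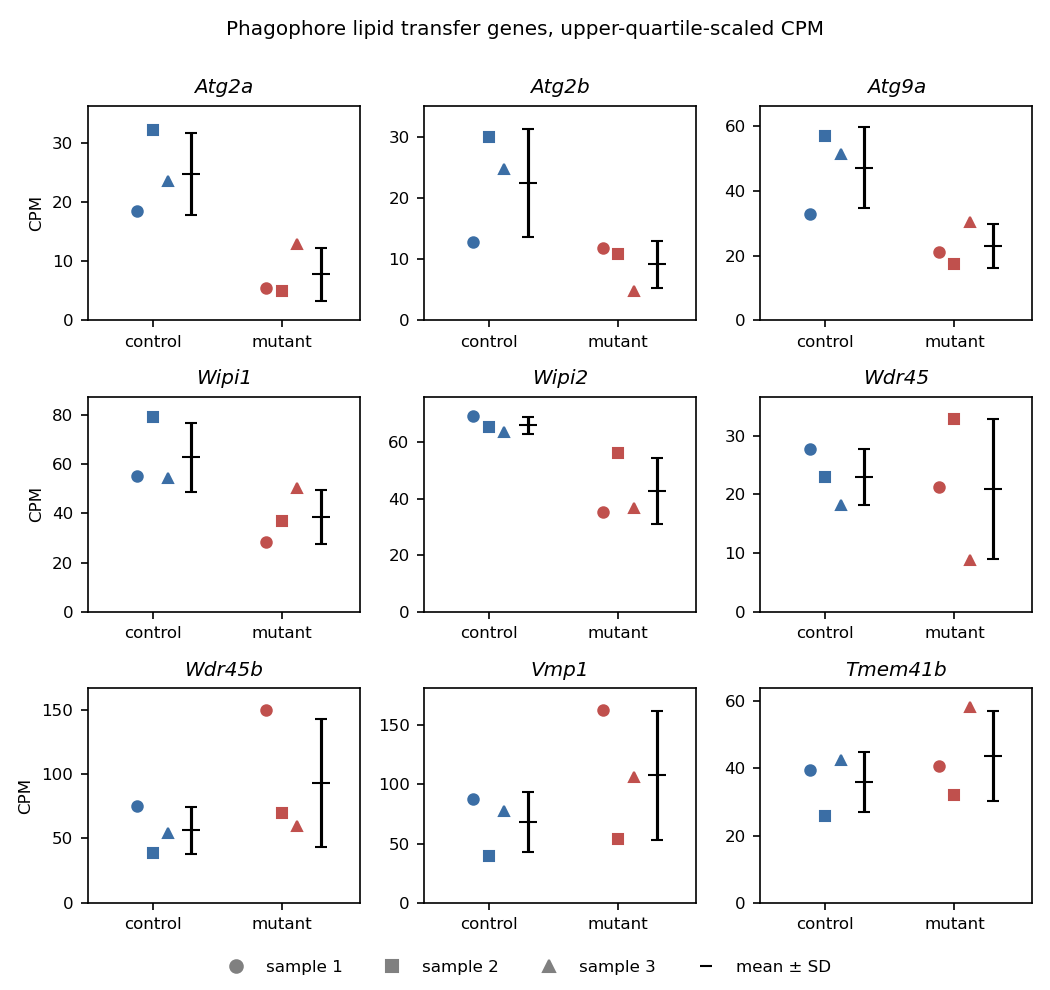
CPM (upper-quartile scaling, linear axes from 0) of the 9 genes in each control (blue) and mutant (red) sample, with the mean and SD of each group of 3. The mutant samples lie below all control samples for Atg2a, Atg2b, Atg9a, Wipi1 and Wipi2, and the groups overlap for the other 4 genes.

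Among the WIPI genes, Wipi1 and Wipi2 passed the unadjusted threshold as lower and Wdr45 and Wdr45b did not pass it. Wipi1, on chromosome 11 from 109573331 to 109611967, had 55.2, 79.2 and 54.4 CPM in control and 28.4, 36.8 and 50.5 CPM in mutant samples. Mutant 3 lay just under the lowest control sample. Its log2 change was -0.70 (standard error 0.30, adjusted p = 0.238, edgeR), from 62.9 ± 14.1 to 38.6 ± 11.2 CPM (SD, n = 3 each). Wipi2, on chromosome 5 from 142627698 to 142670588, had the most even control values of the 9, at 69.5, 65.4 and 63.6 CPM, against 35.4, 56.4 and 36.9 CPM in mutant samples. Here mutant 2, not mutant 3, was nearest to the controls. The log2 change of Wipi2 was -0.62 (standard error 0.26, adjusted p = 0.229, edgeR), from 66.1 ± 3.01 to 42.9 ± 11.8 CPM (SD, n = 3 each). Both calls were lost with the length and GC correction (-0.45 for Wipi1 and -0.25 for Wipi2), without any 1 of the control samples and without mutant 1. That of Wipi1 was also lost without mutant 2 and that of Wipi2 without mutant 3.

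Wdr45 is X-linked (X chromosome, 7714333 to 7728206) and had 27.6, 22.9 and 18.1 CPM in control and 21.2, 32.8 and 8.87 CPM in mutant samples. The mutant samples spanned the control range on both sides, and mutant 3, the mutant sample with Y-linked counts, was the lowest. All control samples also had Y-linked counts, and mutant 1, without them, lay within the control range of Wdr45. The log2 change was -0.13 (standard error 0.49, adjusted p = 0.928, edgeR). The annotated gene Gm45208 overlaps Wdr45 by 5962 bases on the same strand, and 5 of the 6 estimated counts of Wdr45 were not whole numbers, so its values depend on how shared reads were divided. Counts clearly off a whole number also numbered 4 of the 6 for Atg2b, 4 for Atg9a, 3 for Tmem41b and 1 for Atg2a. Wdr45b, on chromosome 11 from 121327224 to 121354445, had 75.4, 38.7 and 54.6 CPM in control and 149.7, 69.5 and 59.8 CPM in mutant samples. Mutant 1 stood above all others, while mutants 2 and 3 lay within the control range. The log2 change of Wdr45b was 0.72 (standard error 0.40, adjusted p = 0.381, edgeR).

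The 2 scramblases of the endoplasmic reticulum did not pass the test, and their fitted changes were above 0. Vmp1, on chromosome 11 from 86583865 to 86683836, had 87.9, 39.5 and 77.1 CPM in control and 162.6, 54.0 and 105.8 CPM in mutant samples. Mutants 1 and 3 lay above every control sample and mutant 2 within their range, and the log2 change was 0.65 (standard error 0.44, adjusted p = 0.482, edgeR). Vmp1 contains the microRNA gene Mir21a (92 bases) and the processed pseudogene Gm11478 (599 bases) on its own strand, with which it could share reads. Tmem41b, on chromosome 7 from 109972187 to 109986929, had 39.6, 25.7 and 42.4 CPM in control and 40.8, 32.0 and 58.2 CPM in mutant samples. The ranges overlapped, with a log2 change of 0.28 (standard error 0.33, adjusted p = 0.720, edgeR).

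**Figure D2:**
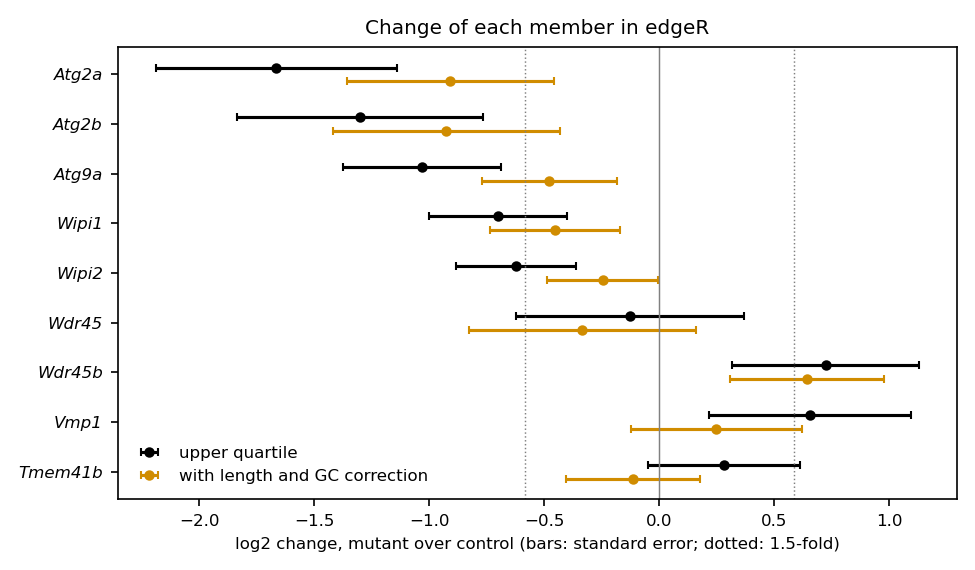
Log2 change (mutant over control) of each gene with its standard error, with upper-quartile scaling (black) and with the length and GC correction (orange), and dotted lines at 1.5-fold. Atg2a moves from -1.66 to -0.91 and the other genes called lower also move toward 0.

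The 5 genes called lower have longer transcripts than most. The longest coding transcript is 6371 bases for Atg2a, 7546 for Atg2b, 4218 for Atg9a, 3338 for Wipi1 and 5171 for Wipi2, where the median of 15104 protein-coding genes is 3096. It is 1609 for Wdr45, 2321 for Wdr45b, 2787 for Vmp1 and 3840 for Tmem41b, which exceeds Wipi1. The GC content of these transcripts was 60.0% for Atg2a, 50.3% for Atg2b, 56.0% for Atg9a, 51.7% for Wipi1 and 52.2% for Wipi2 (median 50.4%). It was 53.3% for Wdr45, 49.5% for Wdr45b, 43.5% for Vmp1 and 42.0% for Tmem41b. The parts of length and of GC content were not separated. A smooth curve of the mutant minus control difference on length and GC content, fitted over genes, gave -0.75 to -0.24 on the log2 scale at the values of the 5 genes called lower and 0.075 to 0.42 at those of the other 4. With that curve taken out, 0 of the 9 genes passed the threshold, where 8.64% of all genes were called lower. The log2 changes were then -0.91 for Atg2a, -0.93 for Atg2b, -0.48 for Atg9a, -0.45 for Wipi1 and -0.25 for Wipi2. That of Tmem41b became -0.11, and that of Wdr45b was 0.64.

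Calls also changed when single samples were left out. Each of these fits has fewer samples, and a call can be lost with its change almost unmoved. Wipi2, for one, was -0.62 (standard error 0.26) in the reported fit and -0.63 (standard error 0.30) without control 2. The changes of Atg2a, Atg2b, Atg9a and Wipi1 did move toward 0 in that fit, to -1.43, -1.04, -0.88 and -0.50. Without control 2, 0 of the 9 genes passed the threshold as lower, without control 3 only Atg2a did, and without mutant 2 Atg2a and Wipi2 did. These fits called 5.61%, 4.97% and 16.5% of all genes lower. Each of the other 3 fits without 1 sample called 3 genes, with 6.46% of all genes lower without control 1, 14.5% without mutant 1 and 15% without mutant 3. In the fit limited to the 4 samples with Y-linked counts (3 control, mutant 3), chosen after seeing the data and in which the single mutant sample is assumed to vary like the controls, Atg2b (-2.23), Wdr45 (-1.38) and Wipi2 (-0.85) passed, and Atg2a (-0.95), Atg9a (-0.64) and Wipi1 (-0.33) did not. This fit called 20.7% of all genes lower. Over the 16 alternatives, the log2 changes of Atg2a, Atg2b, Atg9a, Wipi1 and Wipi2 were below 0 in all 16, and passed the threshold in 13, 10, 11, 9 and 10 of them. Wdr45 passed in 1, Wdr45b in 1, Vmp1 in 2 and Tmem41b in 0. The lowest and highest adjusted p were 0.0327 and 0.399 for Atg2a, 0.0347 and 0.586 for Atg2b, 0.0599 and 0.526 for Atg9a, 0.111 and 0.575 for Wipi1, and 0.0688 and 0.732 for Wipi2.

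**Figure D3:**
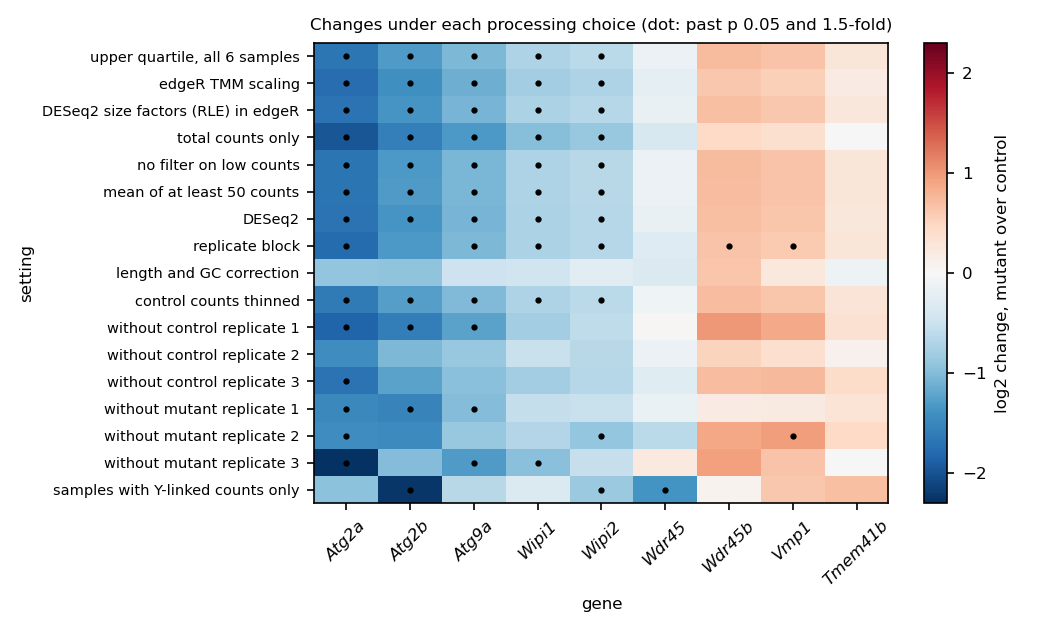
Log2 change (mutant over control, color) of each gene under the reported fit (top) and 16 alternatives, with a dot where p is under 0.05 and the change over 1.5-fold. The 5 columns on the left are below 0 in every line, and none of them has a dot with the length and GC correction or without control replicate 2.

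The genes form 4 pairs of paralogues or partners, and the ratio within a pair does not depend on the scaling of a sample. The log2 ratio of Atg2a to Atg2b counts was 0.53, 0.10 and -0.069 in control and -1.10, -1.12 and 1.41 in mutant samples. In mutants 1 and 2 Atg2b had more counts than Atg2a, in mutant 3 fewer, and the mean difference of -0.46 had an exact two-sided permutation p of 0.600. The ratio of Wdr45 to Wdr45b was -1.45, -0.75 and -1.59 in control and -2.82, -1.08 and -2.75 in mutant samples, a difference of -0.95 (exact permutation p = 0.300). The differences were -0.067 for Wipi1 to Wipi2 (exact permutation p = 0.900) and 0.33 for Vmp1 to Tmem41b (exact permutation p = 0.700). All 4 pairs overlapped between the groups, the adjusted p over the 4 exact tests was 0.900 for each, and 3 samples against 3 cannot give a p below 0.10.

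Levels of different genes were compared per length, as counts over the length of the longest coding transcript, scaled so that every sample has the same total. In control samples, the order was Wdr45b (46.0 ± 8.45), Vmp1 (46.0 ± 10.7), Wipi1 (38.2 ± 16.0), Wdr45 (28.0 ± 6.99), Wipi2 (25.2 ± 4.40), Atg9a (22.6 ± 9.43), Tmem41b (17.9 ± 2.00), Atg2a (7.91 ± 3.71) and Atg2b (6.11 ± 3.31, SD, n = 3 each). Only Tmem41b and Atg2a, as neighbours in this order, did not overlap. In mutant samples, Wdr45b (47.2 ± 21.8) and Vmp1 (44.8 ± 19.2) again had the highest level per length, Atg9a had 6.48 ± 1.53, and Atg2b (1.47 ± 0.65) and Atg2a (1.44 ± 0.75, SD, n = 3 each) were lowest. Wdr45 had 16.2 ± 10.8, Wipi1 13.9 ± 4.03, Tmem41b 13.5 ± 3.31 and Wipi2 10.2 ± 4.06. Atg9a and Atg2b alone among the neighbours did not overlap there. The lipid bridges were thus the least abundant of the 9 transcripts in both genotypes, and the order rests on the transcript length chosen for each gene. Between genotypes, these levels need not follow the fitted changes. Tmem41b went from 17.9 to 13.5 and Vmp1 from 46.0 to 44.8, although their fitted log2 changes were 0.28 and 0.65. Wdr45b went from 46.0 to 47.2 (0.72) and Wdr45 from 28.0 to 16.2 (-0.13). The 5 genes called lower were lower in both measures, which rest on the same counts, so the second is no separate evidence. For a given gene, the 2 measures differ only by a scale factor for each sample, apart from rounding. What makes these factors differ between the genotypes was not tested.

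**Figure D4:**
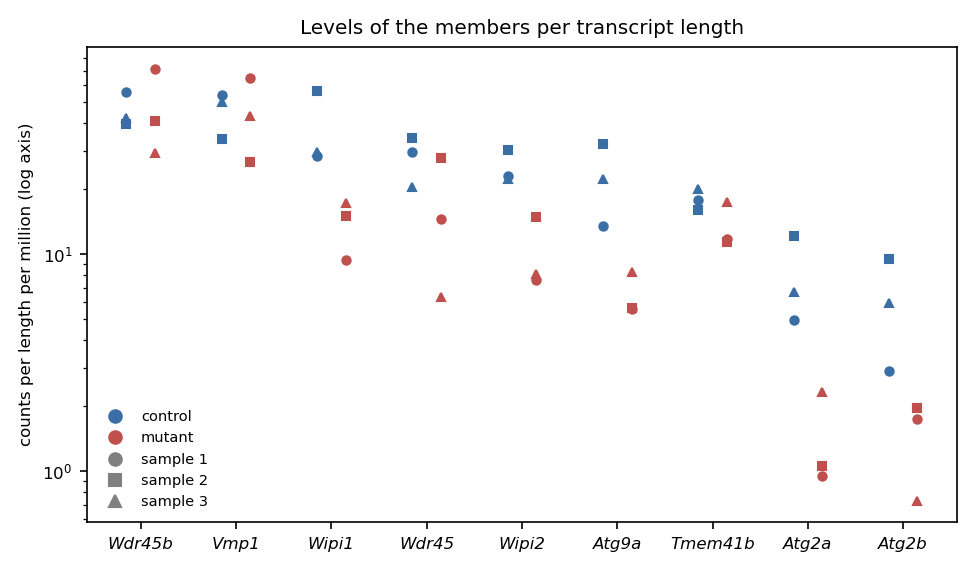
Level per transcript length, scaled to the same total per sample (log axis), of each gene in the 3 control (blue) and 3 mutant (red) samples, ordered by the control mean. Wdr45b and Vmp1 are at the top, with control means of 46.0, and Atg2a and Atg2b at the bottom in both groups.

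Across the 6 samples, which share their genotype split and their depth difference, the members fell into unlike patterns of log2(CPM + 1). Atg2a and Atg9a had a Pearson r of 0.973, and 0.908 on the deviations from the group means, and Atg2a and Wipi1 had 0.938 and 0.855. Atg2a and its paralogue Atg2b had 0.585, and -0.29 on the deviations. Wdr45b and Vmp1 had 0.828, and Wipi1 and Wdr45b -0.90. Of the autophagy genes listed, the most similar to Atg2a was Ambra1, a regulator of the VPS34 complex (r = 0.985), and to Atg2b it was Vps13d, another lipid bridge (r = 0.958). They were Atg2a for Atg9a (r = 0.973), Plekhm1 for Wipi1 (r = 0.978), Atg13 for Wipi2 (r = 0.951), Mtmr2 for Wdr45 (r = 0.923), Map1lc3b for Wdr45b (r = 0.967), and Rab1a for Vmp1 (r = 0.864) and Tmem41b (r = 0.941). Over all genes with a mean of at least 10 CPM, Arnt (r = 0.996), Grk2 (r = 0.996) and Atp8b2 (r = 0.996) were most like Atg2a.

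The steps around the phagophore were read from lists of other autophagy genes. Of 74 such genes tested, 7 were lower and 3 higher at the same threshold, with a median log2 change of -0.25, where 8.92% of all genes tested were lower and 10.9% higher. The counts in the lists below stand beside the same shares. They are calls of the reported fit and were not followed through the alternatives. Over all genes, those with an adjusted p under 0.05 went from 1074 in edgeR's reported fit to 132 with the length and GC correction. In the ULK complex, which starts the process, 1 of 5 genes was lower, the kinase gene Ulk1 (-1.01, adjusted p = 0.159, edgeR). In the VPS34 complex, which makes the lipid that WIPI proteins bind, 0 of 8 were called, and Ambra1 had the smallest p (-0.77, adjusted p = 0.268, edgeR). Among genes for phosphatases of this lipid and for the PIKfyve kinase complex, 1 of 8 was lower, the phosphatase gene Mtmr3 (-1.08, adjusted p = 0.0464, edgeR). Mtmr3 had 71.0, 89.7 and 73.1 CPM in control and 33.2, 44.1 and 33.4 CPM in mutant samples. In the traffic of ATG9 vesicles, 0 of 10 were called, and Ap4m1 of the AP-4 coat had the smallest p (-1.18, adjusted p = 0.395, edgeR). Of 8 genes for other bridge proteins of lipid transfer, 1 was lower, Vps13d (-0.89, adjusted p = 0.242, edgeR).

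Together, the lists for ATG8 attachment, cargo receptors and fusion held calls in both directions. In ATG8 conjugation, 0 of 11 were called, with a median log2 change of 0.18, and Atg4b had the smallest p (-0.60, adjusted p = 0.381, edgeR). In the ATG8 family, whose proteins are attached to the membrane, 1 of 5 was higher, Map1lc3a (0.77, adjusted p = 0.190, edgeR), and the median was 0.33. Of 12 autophagy receptors, 3 were lower and 1 higher. The lower ones include the ferritin receptor gene Ncoa4 (-0.88, adjusted p = 0.0482, edgeR) and Nbr1 (-0.63, adjusted p = 0.219, edgeR), and the higher one was the mitochondrial receptor gene Fundc1 (0.93, adjusted p = 0.204, edgeR). Of 7 genes for fusion with the lysosome, Plekhm1 was lower (-1.18, adjusted p = 0.188, edgeR) and Vamp8 higher (0.78, adjusted p = 0.201, edgeR).

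**Figure D5:**
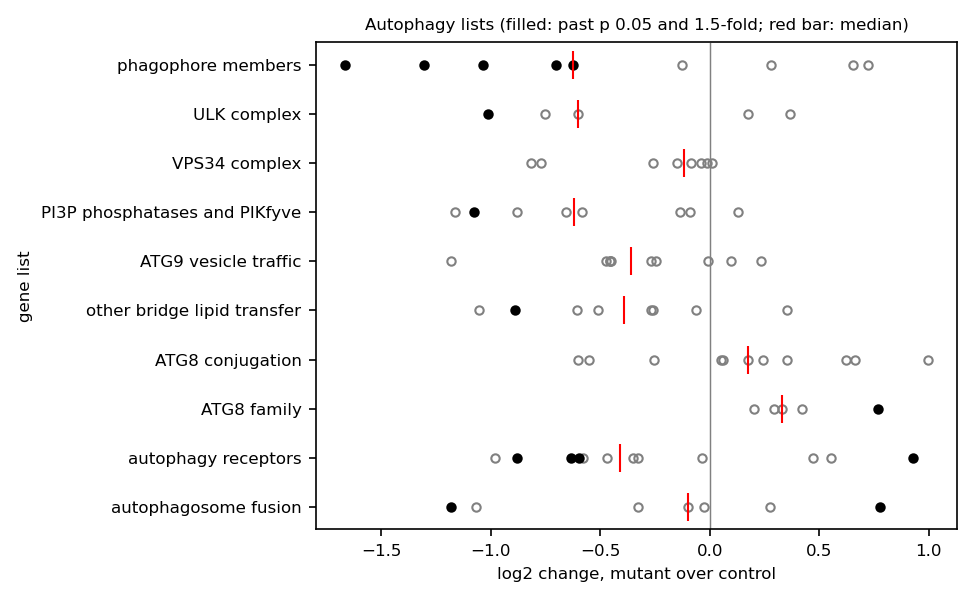
Log2 change (mutant over control) of every gene tested in the 9 phagophore genes and 9 other autophagy lists, with genes past the threshold filled and the median of each list as a red bar. The phagophore genes hold 5 filled points, all below 0, with a median of -0.62, and the ATG8 family lies above 0.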

How the data were processed

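RNA from the proximal incisor (3 control and 3 mutant samples) was sequenced as single reads. The authors trimmed and aligned the reads to mm10 in Partek Flow, the submitters' processing notes name TopHat2 2.0.8, and the authors deposited a table of estimated counts per gene without normalization. The counting model, its annotation and its use of strand are not given in the sources used here. The authors also deposited their own comparison (p-values, adjusted p-values, ratios, signed fold changes and group means), which was not used.

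The estimated counts were rounded, filtered at edgeR's defaults (minimum count 10, total 15) and scaled to a common upper quartile. Genotypes were compared over all 15826 genes with edgeR 4.0.16 in R 4.3.3 (two-sided quasi-likelihood test, Benjamini-Hochberg adjustment), with standard errors taken from the log2 change and its F statistic. The scripts were tested on simulated data. The sources used here do not say whether a sample is 1 mouse, so p-values measure only the spread between these samples, which may be technical. DESeq2 1.42.0, other scalings and filters, a correction for length and GC content (mgcv 1.9.3), thinned control counts, the replicate number as a block and fits without each sample were alternatives. Pair ratios used a pseudocount of 0.5 and an exact permutation test. Positions and lengths came from GENCODE M21 on GRCm38, which holds 18637 of the symbols as written and 216 as a synonym, while 207 were left unmatched.

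The members and all lists were chosen with earlier results of these data known. Named are the 9 members, in each other autophagy list the gene with the smallest p and those past the threshold (up to 2 a direction), the genes most like each member, and Fgfr1.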

Additional observations from a re-analysis of the deposited data

How the results depend on the processing

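The number of members called lower, 5 as reported, was 4 with the replicate number as a block (Atg2b lost its call), 0 with the length and GC correction, 3 in the samples with Y-linked counts and 0 to 3 without 1 sample. The cause of these losses was not tested. The number called higher was 2 with the replicate block (Vmp1 at 0.60 and Wdr45b at 0.66) and 0 to 1 without 1 sample. The study's methods speak of pairs of samples without saying what a pair is, and the replicate numbers were not taken as pairs: same-numbered samples deviated together with correlations of 0.0742, 0.0228 and 0.0883, although each sample correlated best with its own number. Members with an adjusted p under 0.05 numbered 1 in DESeq2 (Atg2a), 1 in the samples with Y-linked counts (Atg2b), and 0 without any 1 sample. The median change of the members was -0.71 with TMM scaling, -0.87 with total counts, -0.34 with the length and GC correction and -0.68 to -0.50 without 1 sample. Wdr45 turned to 0.029 without control replicate 1, and ran from -0.63 to 0.23 over the fits without 1 sample, and Tmem41b to -0.11 with the length and GC correction. The Atg2a to Atg2b ratio turned to 0.010 with that correction. Without 1 sample, the Wipi1 to Wipi2 ratio ran from -0.37 to 0.16 and that of Vmp1 to Tmem41b from -0.069 to 0.55. Total counts moved the median of all genes to -0.30 and the replicate block to -0.27. Over all genes, 1074 had an adjusted p under 0.05 in the reported fit, 1609 in DESeq2, 508 with the block, 370 at a mean of at least 50 counts, 374 with thinned controls, 229 without a filter, 132 with the length and GC correction and 76 to 606 without 1 sample. Per length, a mean transcript length raised the control levels of Wdr45 to 38.0, Wdr45b to 70.3 and Vmp1 to 65.8, and kept the order. The mutant depth limits Atg2a most, with 25 counts in mutant 1.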

Other observations

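Ratios of summed levels per length between the functional classes were formed after the values had been seen, and are given without a test. By then Atg2a, Atg2b and Atg9a were known to be lower in every mutant sample than in any control sample. The ATG2 bridges (Atg2a and Atg2b) over the scramblases of the endoplasmic reticulum (Vmp1 and Tmem41b) had a ratio of 0.110, 0.433 and 0.180 in control and 0.0351, 0.0799 and 0.0501 in mutant samples, without overlap. Atg9a over the same scramblases had 0.187, 0.647 and 0.316 in control and 0.0728, 0.149 and 0.136 in mutant samples, again without overlap. Wipi1 and Wipi2 over Wdr45 and Wdr45b had 0.603, 1.18 and 0.823 in control and 0.198, 0.436 and 0.711 in mutant samples, which overlapped. How often such ratios separate the groups for other genes was not counted. Of single genes, 16.3% had all mutant samples below all control samples and 14.1% had all above. Atg2a, Atg2b and Atg9a have longer transcripts than Vmp1 and Tmem41b. Their GC content is 60.0%, 50.3% and 56.0%, against 43.5% for Vmp1 and 42.0% for Tmem41b. The part of length and GC content in these ratios was not tested.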
